A study of Oryza sativa Indica Group with 2 samples.

Results

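The genes described here are 10 rice loci of jasmonate synthesis and signalling, chosen by locus number out of the 55337 loci of the deposited expression table. Synthesis is represented by 6 of them, *EG1*, *AOS1*, *AOS2*, *AOC*, *OPR7* and *JAR1*, and signalling by 4, *COI1a*, *COI1b*, *JAZ1* (also called *EG2*) and *MYC2*. Poly(A) RNA of young panicles was sequenced as 1 library of the *Osam1* mutant and 1 library of the wild type. The wild type is the *indica* variety Zhongxian 3037, and *Osam1* was obtained from the same variety by gamma irradiation and carries a short deletion in the second exon of *OsAM1* that brings in an early stop codon. Both genotypes were field-grown as paddy rice, and each RNA sample pooled spikelets of several panicles whose meiocytes were in prophase I. With 1 library per genotype, no difference below has a replicate check, and no SD or p-value exists for any of them.

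The assignment of the columns to the genotypes is in doubt. The submitters' labels tie the column whose heading ends in capitals (AA) to *Osam1* and the column ending in small letters (aa) to the wild type, while capitals customarily mark the wild-type allele. The directions that the study states for its own single-model genes go with the exchanged columns in all 13 cases checked. The study also reports that qRT-PCR on other plants gave the same patterns as its RNA-Seq for every gene tested. The mutated gene was not used as a check, and the sources used here pair *OsAM1* with no locus. The libraries are therefore named by their labels, and every direction below turns round if the labels were exchanged.

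Jasmonates are lipid hormones made from linolenic acid. A plastid lipase frees the fatty acid, a lipoxygenase oxidises it, allene oxide synthase (AOS) and allene oxide cyclase (AOC) turn the product into OPDA, and an OPDA reductase (OPR) followed by β-oxidation in the peroxisome completes jasmonic acid, which JAR1 joins to isoleucine to give the active hormone. The F-box protein COI1 binds this conjugate together with a JAZ repressor, the repressor is degraded, and transcription factors such as MYC2 are set free. In rice flowers, jasmonate is known for its part in spikelet development and in anther and pollen function. Mutations in *EG1* or *EG2* are known to give spikelets with extra glumes. Genes of AOS, AOC and the JAZ repressors are themselves known to be induced by jasmonate in many plants.

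The synthesis genes *AOS1* and *AOC* were at least 2-fold lower in the *Osam1*-labelled library, and none of the 10 genes was at least 2-fold higher. The 4 signalling genes were all within 2-fold. Levels are given as FPKM, fragment counts corrected for transcript length and library size, with the transcript models of a locus added together. FPKM is the unit in the heading of the table, whereas the study's methods name RPKM, which counts reads. A locus counted as changed when log2 of the ratio of FPKM + 1, *Osam1*-labelled over wild-type-labelled, was at or beyond 1 in either direction. By the same rule, 11.2% of all loci were lower and 9.57% were higher, but these shares count the many loci listed at 0 in both libraries, which cannot differ. Of the 21837 loci whose mean level reached 1 FPKM, 23.9% were lower and 20.6% were higher. *EG1* and *AOS2* did not reach that mean. Of the other 8 genes, 2 were lower, close to the share among those loci, and 0 were higher.

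**Figure D1:**
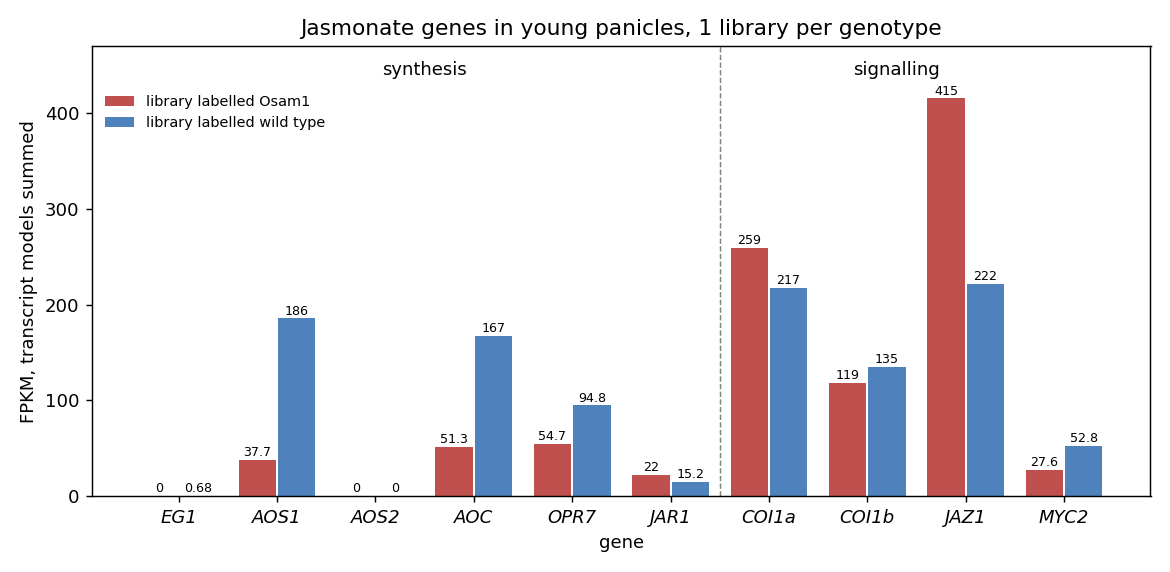
Level of each gene (FPKM, transcript models summed, linear axis from 0) in the *Osam1*-labelled library (red, left) and the wild-type-labelled library (blue, right), 1 library each and hence no error bars. *AOS1* (37.7 against 186) and *AOC* (51.3 against 167) have the widest ratios of the genes above 0 in both libraries, *JAZ1* is the highest gene in both libraries, and *EG1* and *AOS2* are at or near 0.

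*AOS1* (LOC_Os03g55800, chromosome 3), which encodes an allene oxide synthase of the cytochrome P450 family, had 37.7 FPKM in the *Osam1*-labelled library, against 185.6 FPKM in the wild-type-labelled library. This was 4.93-fold higher in wild type by the labels, with a log2 ratio of -2.27. Among loci with a value above 0 in the same library, the gene stood above 74.8% of them in the *Osam1*-labelled library and above 95.9% in the wild-type-labelled library. It was the sixth highest of the 10 genes in the *Osam1*-labelled library and the third highest in the wild-type-labelled library. Because the samples were whole spikelets, fewer cells that express a gene and less RNA per cell cannot be told apart, here or for any gene below.

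*AOC* (LOC_Os03g32314, chromosome 3) encodes the allene oxide cyclase, which acts directly after AOS, and rice mutants that lack it make no jasmonate. It had 51.3 FPKM in the *Osam1*-labelled library, against 167.1 FPKM in the wild-type-labelled library, which was 3.26-fold higher in wild type by the labels, with a log2 ratio of -1.69. Both *AOS1* and *AOC* have 1 transcript model, so the way in which models are combined does not enter their values. Their means over both libraries were 111.6 FPKM and 109.2 FPKM. Of the 1988 loci whose mean level reached 100 FPKM, 13.1% were lower by that rule, 8.8% were lower by 3-fold or more and 8.55% were higher by that rule. Both genes passed 3-fold. The level of *AOS1* relative to *AOC* was 0.735 in the *Osam1*-labelled library and 1.11 in the wild-type-labelled library.

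The second allene oxide synthase gene, *AOS2* (LOC_Os03g12500, chromosome 3), was listed at 0 in both libraries. Among the allene oxide synthase members, values above 0 were therefore found for *AOS1* alone. *EG1* (LOC_Os01g67430, chromosome 1), a lipase gene at the start of the route, was listed at 0 in the *Osam1*-labelled library and had 0.68 FPKM in the wild-type-labelled library. That value stood above 9.34% of the expressed loci of its library. Being so low, *EG1* lay within 2-fold with 1 FPKM added and beyond it with 0.1 FPKM added, which made 3 of the 10 genes lower.

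*OPR7* (LOC_Os08g35740, chromosome 8), whose product reduces OPDA in the peroxisome, had 54.7 FPKM in the *Osam1*-labelled library, against 94.8 FPKM in the wild-type-labelled library. The log2 ratio of these sums was -0.78, within 2-fold, but its 2 transcript models lay beyond 2-fold in opposite directions. Model 1 had 49.4 FPKM in the *Osam1*-labelled library and 23.5 FPKM in the wild-type-labelled library, a log2 ratio of 1.04. Model 2 had 5.29 FPKM in the *Osam1*-labelled library and 71.3 FPKM in the wild-type-labelled library, a log2 ratio of -3.52. Model 1 thus made up 90.3% of the locus in the *Osam1*-labelled library and 24.8% in the wild-type-labelled library, and the leading model changed.

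*JAR1* (LOC_Os05g50890, chromosome 5), the gene of the enzyme that conjugates jasmonic acid to isoleucine, was the only synthesis gene with a positive ratio. It had 22.0 FPKM in the *Osam1*-labelled library, against 15.2 FPKM in the wild-type-labelled library, a log2 ratio of 0.50 that lay within 2-fold. In the *Osam1*-labelled library the whole value sat on model 1, and models 2 and 3 were listed at 0. In the wild-type-labelled library, models 1 and 2 had the identical value of 7.61 FPKM and model 3 was listed at 0. Taking the largest model of each locus in place of the sum therefore put *JAR1* beyond 2-fold, with a log2 ratio of 1.42. Identical values above 0 at several models of a locus were found for 29.6% of the 3895 multi-model loci with at least 10 FPKM in both libraries. Whether such models were credited with the same reads was not tested.

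*JAZ1* and *COI1a* had the highest sums of the set in both libraries. *JAZ1* (LOC_Os04g55920, chromosome 4) encodes a repressor that COI1 recognises and that binds transcription factors of the pathway. It had 415.2 FPKM in the *Osam1*-labelled library, against 222.0 FPKM in the wild-type-labelled library, a log2 ratio of 0.90, short of 2-fold. It was the highest of the 10 genes in both libraries and stood above 98.5% and 96.8% of the expressed loci of the *Osam1*-labelled and wild-type-labelled libraries.

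The difference at *JAZ1* lay in 2 of its 3 analysed models. Model 5 had 219.7 FPKM in the *Osam1*-labelled library and 44.4 FPKM in the wild-type-labelled library, a log2 ratio of 2.28. Model 1, a minor one, had 18.3 FPKM in the *Osam1*-labelled library and 5.93 FPKM in the wild-type-labelled library. Model 2 hardly differed, with 177.2 FPKM in the *Osam1*-labelled library and 171.7 FPKM in the wild-type-labelled library. Model 5 led in the *Osam1*-labelled library with 52.9% of the locus, and model 2 led in the wild-type-labelled library with 77.3%. The place of *JAZ1* as the highest gene of the wild-type-labelled library rests on the sum, since *COI1a* (212.0 FPKM) and *AOS1* (185.6 FPKM) stood above it there when the largest model of each locus was taken.

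The receptor genes had the smallest ratios among the 8 genes above 0 in both libraries. *COI1a* (LOC_Os01g63420, chromosome 1) had 259.1 FPKM in the *Osam1*-labelled library, against 217.2 FPKM in the wild-type-labelled library, a log2 ratio of 0.25. *COI1b* (LOC_Os05g37690, chromosome 5) had 118.6 FPKM in the *Osam1*-labelled library, against 135.0 FPKM in the wild-type-labelled library, a log2 ratio of -0.19. Both F-box genes stood above at least 92.9% of the expressed loci of either library. *COI1a* exceeded *COI1b* 2.18 times in the *Osam1*-labelled library and 1.61 times in the wild-type-labelled library. Its model 2 carried most of the signal, with 191.5 FPKM in the *Osam1*-labelled library and 212.0 FPKM in the wild-type-labelled library. Model 1 was the minor one and differed more, with 67.7 FPKM in the *Osam1*-labelled library and 5.17 FPKM in the wild-type-labelled library, and model 3 was listed at 0 in both.

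*MYC2* (LOC_Os10g42430, chromosome 10), which encodes a bHLH transcription factor held back by JAZ proteins, was the lowest signalling gene in both libraries. It had 27.6 FPKM in the *Osam1*-labelled library, against 52.8 FPKM in the wild-type-labelled library, a log2 ratio of -0.91. Its 1 transcript model lay just short of 2-fold, as *JAZ1* did on the other side. The level of *JAZ1* relative to *MYC2* was accordingly 15.0 in the *Osam1*-labelled library and 4.21 in the wild-type-labelled library.

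**Figure D2:**
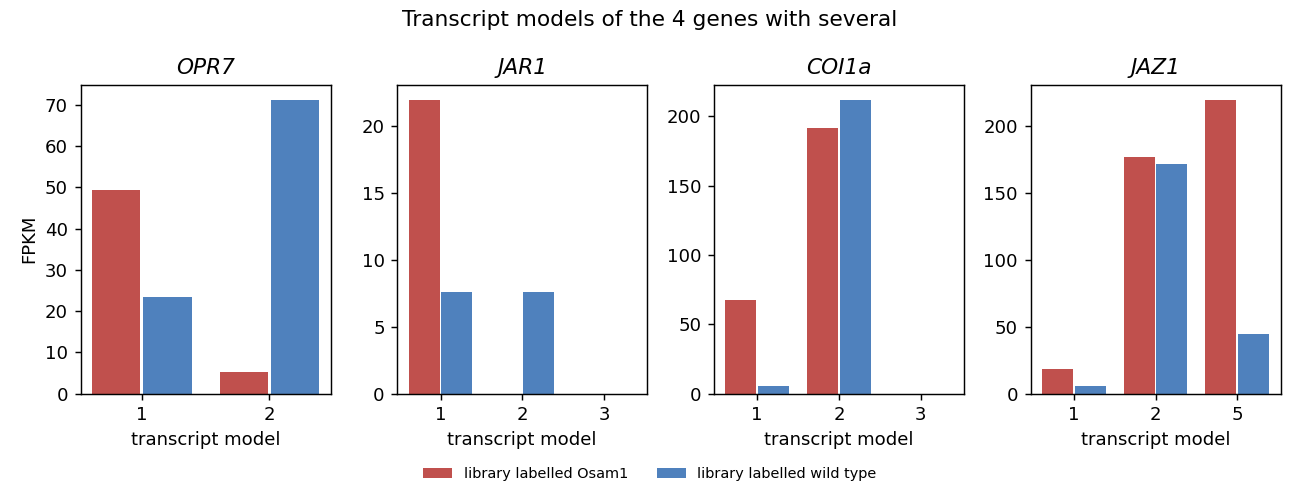
FPKM of each transcript model of *OPR7*, *JAR1*, *COI1a* and *JAZ1* (linear axes from 0, own scale in each panel) in the *Osam1*-labelled library (red, left) and the wild-type-labelled library (blue, right). The leading model of *OPR7* and of *JAZ1* differs between the libraries, and models 1 and 2 of *JAR1* share the value 7.61 in the wild-type-labelled library.

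Of the 4 genes with several transcript models, 2 had a different leading model in each library, and the same was found for 18.3% of the 3895 multi-model loci with at least 10 FPKM in both libraries. Of the 10414 transcript models of these loci, 18.6% were higher and 20.7% were lower by the 2-fold rule. Among the 11 models of the 4 genes, 5 were higher and 2 were lower by that rule. How reads were divided among overlapping models is not stated, so the sums are given as the main values.

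Synthesis and signalling were then set side by side in both libraries. The 6 synthesis genes summed to 165.6 FPKM in the *Osam1*-labelled library and to 463.4 FPKM in the wild-type-labelled library, which was 2.80-fold higher in wild type by the labels. The 4 signalling genes summed to 820.5 FPKM in the *Osam1*-labelled library and to 626.9 FPKM in the wild-type-labelled library. The 4 signalling genes thus summed to 4.96 times the synthesis sum in the *Osam1*-labelled library and to 1.35 times in the wild-type-labelled library. *JAZ1* was the only *JAZ* locus in the signalling sum. The 14 other *JAZ* loci described below summed to 315.7 FPKM in the *Osam1*-labelled library and to 1070 FPKM in the wild-type-labelled library. The size of the contrast and the direction for signalling therefore depend on which *JAZ* loci are counted. With these loci added, the signalling sum too would be lower in the *Osam1*-labelled library. The log2 ratios of the sums were -1.48 for synthesis and 0.39 for signalling, a difference of -1.87. Across 12 of the alternative settings, all but the exchange of labels, this difference lay between -2.03 and -1.39. None of these settings added the other *JAZ* loci, and most of them could hardly move it. Scaling a library nearly cancels out of the difference, and the added values, the filters and leaving out *EG1* barely touch the sums. The ends of the range came from counting *JAR1* with signalling (-2.03) and from the largest model of each locus (-1.39). Even for the 4 genes alone, the sign for signalling was less firm, since the largest model of each locus in place of the sum gave -0.036.

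*AOS1* and *AOC* accounted for most of the difference between the libraries in the synthesis sum. Together they had 88.9 FPKM in the *Osam1*-labelled library and 352.7 FPKM in the wild-type-labelled library, which was 53.7% of the synthesis sum in the *Osam1*-labelled library and 76.1% in the wild-type-labelled library. The other 4 synthesis genes summed to 76.6 FPKM in the *Osam1*-labelled library and 110.7 FPKM in the wild-type-labelled library, a log2 ratio of -0.52. Gene by gene, the median log2 ratio was -0.77 over the 6 synthesis genes and 0.03 over the 4 signalling genes, beside 0 over all loci and 0.09 over the loci above 0 in both libraries. *JAZ1* alone supplied 50.6% of the signalling sum in the *Osam1*-labelled library and 35.4% in the wild-type-labelled library. Without replicates, no spread is at hand to judge which neighbours in the order of levels differ.

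**Figure D3:**
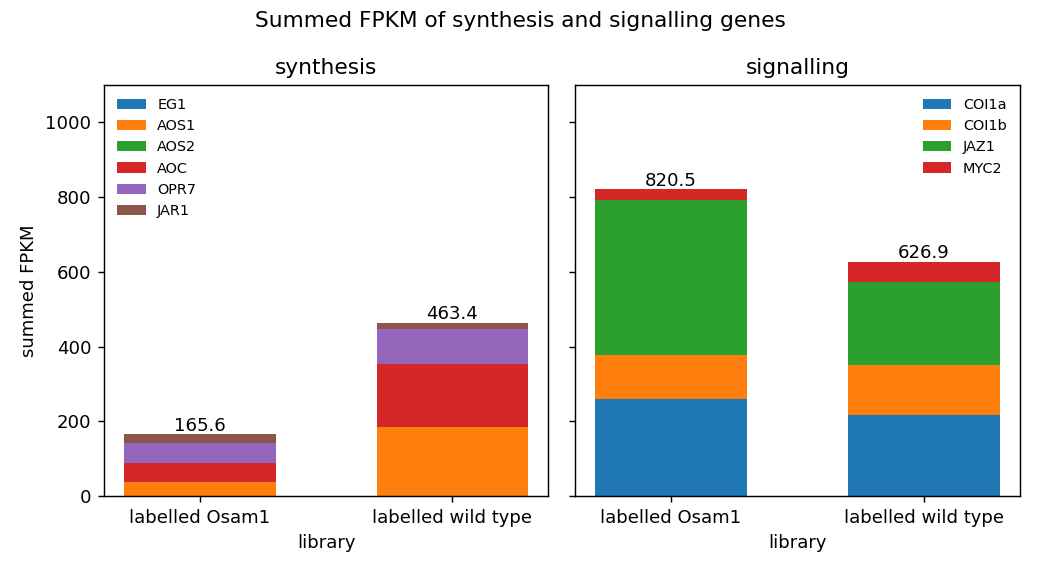
Summed FPKM of the 6 synthesis genes (left panel) and the 4 signalling genes (right panel), stacked by gene, with the *Osam1*-labelled library as the left bar and the wild-type-labelled library as the right bar of each panel. Synthesis totals 165.6 against 463.4, with *AOS1* and *AOC* as the largest blocks in the wild-type-labelled library, and signalling totals 820.5 against 626.9.

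A further 45 loci of the pathway were taken from lists written from general knowledge, namely 14 other *JAZ* loci, 14 lipoxygenases, 7 other *OPR* loci, 3 other loci of the P450 family of AOS and 7 further loci of conjugation, perception, β-oxidation, catabolism and transcription. The tables used here do not pair these locus numbers with names, so the lists are described by counts and only 4 of their loci are given by number. Of the 45 loci, 15 were lower by the 2-fold rule, with the *Osam1*-labelled library as the lower one, and 3 were higher, and 11 were listed at 0 in both libraries. The shares were 33.3% and 6.67%, beside 11.2% and 9.57% of all loci, and beside 23.9% and 20.6% of the loci whose mean level reached 1 FPKM. The 15 lower and 3 higher loci all reached that mean, but not all of the 45 did. The shares of the 45 are thus smaller than they would be among loci at that level. Of the 15 lower loci, 7 were listed at 0 in the *Osam1*-labelled library. Among the 22 pathway loci above 0 in both libraries, 8 were lower and 2 were higher. Over the whole table, 18346 loci were above 0 in both libraries, of which 2788 were lower and 2881 were higher.

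Of the 15 lower loci, 8 were in the *JAZ* list. Of its 14 loci, 8 were lower in the *Osam1*-labelled library, 1 was higher and 5 were within 2-fold, 2 of these being at 0 in both libraries. Summed over the list, there were 315.7 FPKM in the *Osam1*-labelled library and 1070 FPKM in the wild-type-labelled library, and the median level was 13.7 FPKM in the *Osam1*-labelled library and 46.9 FPKM in the wild-type-labelled library. The 8 lower loci comprised 3 listed at 0 in the *Osam1*-labelled library and 5 with values in both. These 5 had between 13.0 and 36.9 FPKM in the *Osam1*-labelled library and between 45.2 and 120.2 FPKM in the wild-type-labelled library. Their log2 ratios ran from -2.67 to -1.58, around that of *AOC*. The median of the list was -1.63, whereas the ratio of *JAZ1* itself was 0.90.

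The lower loci with the highest summed level, picked after their values were seen, were LOC_Os03g08330 of the *JAZ* list and LOC_Os03g53020 of the further loci. LOC_Os03g08330 was listed at 0 in the *Osam1*-labelled library and at 310.4 FPKM in the wild-type-labelled library. This locus and several others of the *JAZ* list have near neighbours in that list by locus number. They include most of the lower loci of the list and its only higher locus. The study counts many reads that matched several positions, and how reads were divided among such neighbours was not tested. LOC_Os03g53020 had 8.02 FPKM in the *Osam1*-labelled library and 269.7 FPKM in the wild-type-labelled library, a log2 ratio of -4.91. Among the higher loci, LOC_Os01g12160 of the further loci had 11.2 FPKM in the *Osam1*-labelled library and 2.32 FPKM in the wild-type-labelled library, and LOC_Os10g25250 of the *JAZ* list had 11.5 FPKM in the *Osam1*-labelled library and was listed at 0 in the wild-type-labelled library.

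The remaining lists had fewer loci past 2-fold. Of the 14 lipoxygenase loci, 3 were lower, 1 was higher and 5 were listed at 0 in both libraries. Their sums were 73.6 FPKM in the *Osam1*-labelled library and 159.8 FPKM in the wild-type-labelled library. Of the 7 other *OPR* loci, 1 was lower and 0 were higher, with list sums of 28.0 FPKM in the *Osam1*-labelled library and 25.6 FPKM in the wild-type-labelled library. The 3 loci of the AOS family reached at most 0.45 FPKM in the *Osam1*-labelled library and were listed at 0 in the wild-type-labelled library. Of the 7 further loci, 3 were lower and 1 was higher. They summed to 147.6 FPKM in the *Osam1*-labelled library and 454.2 FPKM in the wild-type-labelled library, of which LOC_Os03g53020 had 8.02 and 269.7 FPKM.

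**Figure D4:**
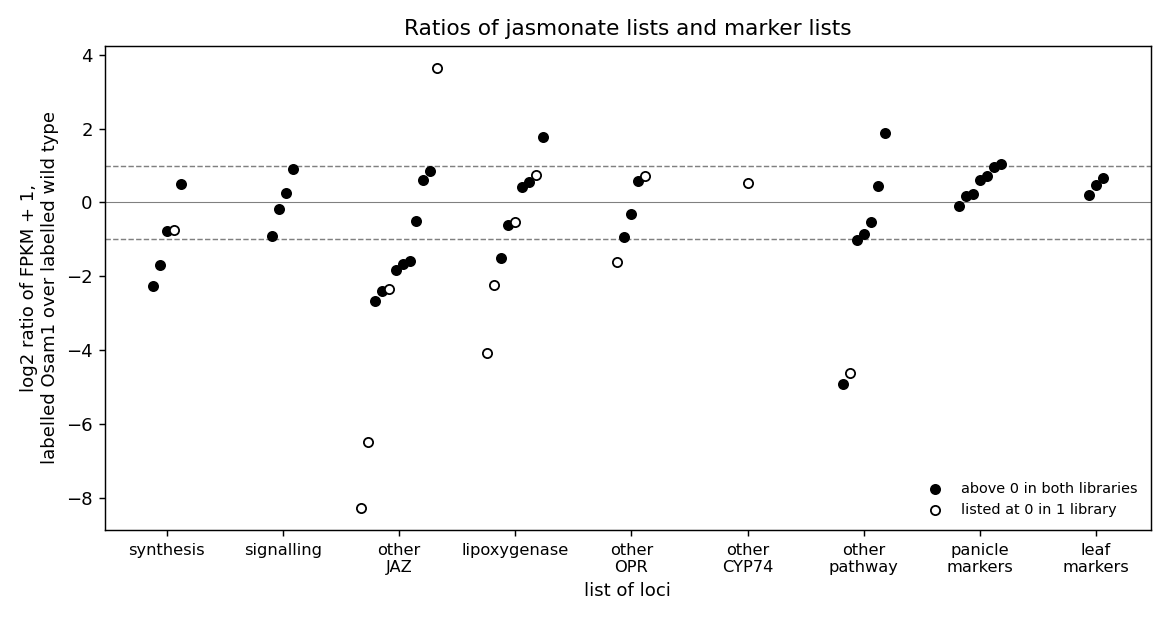
Log2 ratio of FPKM + 1, library labelled *Osam1* over library labelled wild type, for each locus above 0 in at least 1 library, by list, with dashed lines at -1 and 1. Filled points have values above 0 in both libraries, open points are listed at 0 in 1 of them. The *JAZ* list lies mostly below -1, with 8 loci there, while the 7 panicle marker loci have 0 below -1 and 1 above 1.

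Markers of the labelled tissue were present in both libraries. *MEL1*, a germ cell Argonaute gene, had 22.1 FPKM in the *Osam1*-labelled library and 19.6 FPKM in the wild-type-labelled library, and *MIL1*, which acts in the anther, had 7.96 FPKM in the *Osam1*-labelled library and 4.48 FPKM in the wild-type-labelled library. With 5 floral MADS-box loci from general knowledge, the 7 markers had between 7.96 and 358.3 FPKM in the *Osam1*-labelled library and between 4.48 and 308.3 FPKM in the wild-type-labelled library, and 0 of the 7 were lower. They summed to 830.9 FPKM in the *Osam1*-labelled library and to 598.5 FPKM in the wild-type-labelled library. The 3 leaf loci of photosynthesis, listed in the same way, summed to 242.4 FPKM in the *Osam1*-labelled library and 163.0 FPKM in the wild-type-labelled library, and all 3 were within 2-fold. Both lists leaned to the side opposite to that of *AOS1* and *AOC*, and their part in the results above was not tested.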

How the data were processed

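Spikelet RNA of 2 samples, 1 *Osam1* and 1 wild type, was sequenced without strand information. The authors removed adaptor and low-quality reads, mapped the rest with SOAPaligner/soap2 to the genome of the Rice Genome Annotation Project and used ERANGE (version 4.0) for expression levels; the annotation release is not given in the sources used here. The deposited values are FPKM for each of 65535 transcript models, rounded to 2 decimals, by the heading of the table, whereas the methods name RPKM, and which of these was computed was not settled. They were summed per locus, 1 FPKM was added, and the ratio was taken on the log2 scale, which understates changes of low genes. Rows past the end of the table on chromosome 12 were not analysed here. No statistical test was made, since each genotype has 1 library.

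Read counts are not in the table. Among 4887 loci of 1 model with low values in the *Osam1*-labelled library (0.3 to 10 FPKM), the commonest ratio to the wild-type-labelled library was 2.37 (125 loci), followed by 1.19 (85 loci), steps that whole reads would leave. Read as 1 read in each library, 2.37 would be the depth of the wild-type-labelled over the *Osam1*-labelled library. The read totals in the paper do not give this ratio, and they give this order only with the labels exchanged. Relative depth is therefore not settled here, the reads behind single loci are unknown and no interval is given. Summed FPKM was 1376088 in the *Osam1*-labelled and 1142813 in the wild-type-labelled library, and loci reaching 1 FPKM in both had a median ratio of 1.05.

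The members and lists were chosen with earlier results of these data known. All 10 members were named by rule, with any listed locus whose name the sources give. With 2 libraries, likeness of patterns cannot be measured. RefSeq symbols (no locus numbers of the table among them) hold the names of 8 of the 10 members and of 12 of the 14 other *JAZ* genes on the chromosome of the listed locus. No sequences were used here. Alternatives were other added values, 3 scalings, other ways to combine models, 2 filters, other groupings of *JAR1* and *EG1*, and an exchange of labels. The calling code was tested on simulated data with known fold changes and counting error alone, which gives no error rate for differences between plants or libraries. Python 3.11.15, numpy 2.4.6, pandas 2.3.3 and matplotlib 3.10.9 were used.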

Additional observations from a re-analysis of the deposited data

How the results depend on the processing

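Of 221 values recomputed over 13 alternative settings, 178 kept their direction and their side of 2-fold, or, for a count, stayed within 1.5 times. Some of the 178 could not change. *AOS2* is at 0 in both libraries under every setting, and genes of 1 model have the same value however models are combined. With the labels exchanged, every ratio changes sign: *AOS1* becomes 2.27, *AOC* 1.69, the synthesis sum 1.48, the signalling sum -0.39 and their difference 1.87. The members are then 2 higher and 0 lower, the 45 pathway loci 15 higher and 3 lower, and the *JAZ* list 8 higher and 1 lower. Apart from this exchange, *AOS1* stayed between -2.34 and -2.27 and *AOC* between -1.75 and -1.69.

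The way of combining transcript models mattered for genes with several. With the first listed model, 4 members were higher and *OPR7* changed sign to 1.04. With the largest model, 1 member, *JAR1*, was higher and the signalling sum had a log2 ratio of -0.036. Adding 0.1 or 0.01 FPKM raised the pathway loci called higher from 3 to 6 and those called lower from 15 to 17. With loci above 0 in both libraries alone, 8 pathway loci were lower, of which 5 were in the *JAZ* list, where 0 were higher. No paired analysis was possible because each genotype has 1 library. The depth behind single loci is unknown, so differences at low levels, such as that of *EG1*, cannot be judged.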
